A study of Mus musculus with 12 samples.

Results

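The fibulins and the matricellular glycoproteins of murine BrafV600E melanoma cells were described in 10 genes of the 30705 gene names measured, namely *Fbln1*, *Fbln2*, *Fbln5*, *Efemp1*, *Efemp2*, *Fn1*, *Tnc*, *Thbs1*, *Thbs2*, and *Spp1*. The genes were chosen by name, with the differences in their RPKM levels between the cell lines in these samples known, so their levels and differences are given as a description, without p-values. RNA-seq was performed on 12 samples of cultured cells, 3 of scramble controls and 3 per knockout line, named *ptgs1*-KO (the COX-1 gene), *ptgs2*-KO (COX-2), and *ptges*-KO (the prostaglandin E2 synthase mPGES-1). All 4 groups came from the same parental line, from a C57BL/6 mouse with a Cre-inducible Braf V600E allele, a melanocyte-specific tamoxifen-inducible Cre (Tyr::CreERT2), and a p16INK4a deletion. Knockouts were made with CRISPR/Cas9 kits under puromycin selection and subcloned by limiting dilution, and the study describes the 3 samples of a line once as different subclones and once as independent samples, so whether their spread is that between clones is not settled. A difference between lines includes whatever else sets those clones apart.

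Fibulins are secreted glycoproteins with tandem calcium-binding EGF modules and a shared C-terminal module, and they link elastic fibers, basement membranes, and fibronectin networks. Matricellular proteins such as thrombospondins, tenascin-C, and osteopontin are secreted into the matrix but act mainly on cell receptors and growth factors rather than as scaffold. In melanoma, fibronectin and osteopontin are known as ligands of integrins that tumor cells use for adhesion and migration.

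The labels were first checked on the targeted genes. *Ptgs1* was 151 ± 11.5 RPKM (reads per kilobase of transcript and per M reads; mean ± SD, n = 3) in scramble and 16.0 ± 1.49 in *ptgs1*-KO cells, *Ptgs2* was 761 ± 14.2 and 79.8 ± 4.38 in *ptgs2*-KO cells, and *Ptges* was 77.6 ± 2.43 and 37.1 ± 3.37 in *ptges*-KO cells. In *ptgs1*-KO cells *Ptges* (54.5 ± 2.76) and *Ptgs2* (598 ± 86.4) also lay below all scramble samples, as did *Ptges* in *ptgs2*-KO cells (67.3 ± 3.44). Of 7 markers of the melanocyte lineage, *Sox10*, *Tyrp1*, *Dct*, and *Mlana* were listed at 0 in all samples and only *Mitf* had a mean of at least 1 RPKM, so most of the defining lineage markers were absent from the labelled melanoma cells. Of 8 fibroblast markers, *Dcn* and *Lum* were at 0, *Pdgfra* and *Pdgfrb* passed 1 RPKM, and the summed level ran from 17.5 to 24.0 RPKM in scramble, 24.0 to 35.4 in *ptgs1*-KO, 9.75 to 11.5 in *ptgs2*-KO, and 9.63 to 13.1 in *ptges*-KO cells. The part of this shift in the values below was not tested. The summed markers of macrophages (6 genes), endothelial cells (4), and keratinocytes (4) did not exceed 2.14, 0.28, and 1.56 RPKM in any sample. Depth, estimated from the steps of low values, was 13.5 to 17.2 M reads per sample. The *ptgs1*-KO replicate 3 library stood apart, with 47672 RPKM of the ribosomal RNA row *Rn45s* against 2169 to 17613 in the others, and *ptgs1*-KO differences were also computed without it.

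For 3 of the genes the bases before the start site are shown first. RefSeq windows of 250 bases upstream of the start (GRCm38.p6) were found for 8 of the 10 genes, 14 windows in all, and none for *Fn1* and *Thbs1*. The *Fbln2* window overlaps an annotated exon and is not printed. Shown are *Fbln1*, the gene detected at more than a few reads in *ptges*-KO cells alone, *Spp1*, the most abundant of the 10, and *Fbln5*, the gene whose windows held the core of the cAMP response element. All are written 5′ to 3′ on the strand of the gene, with capitals for matches of the motifs named below on either strand.
Fbln1, chr15:85205699-85205948 (+): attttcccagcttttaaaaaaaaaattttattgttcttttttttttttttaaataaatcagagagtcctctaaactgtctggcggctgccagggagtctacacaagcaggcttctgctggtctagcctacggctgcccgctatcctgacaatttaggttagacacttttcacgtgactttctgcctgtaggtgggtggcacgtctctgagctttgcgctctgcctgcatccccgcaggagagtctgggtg
Spp1, chr5:104434861-104435110 (+): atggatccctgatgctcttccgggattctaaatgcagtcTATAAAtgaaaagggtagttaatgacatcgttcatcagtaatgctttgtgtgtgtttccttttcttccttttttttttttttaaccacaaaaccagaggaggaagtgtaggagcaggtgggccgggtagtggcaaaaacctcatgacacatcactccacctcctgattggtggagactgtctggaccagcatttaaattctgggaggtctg
Fbln5, chr12:101819120-101819369 (-): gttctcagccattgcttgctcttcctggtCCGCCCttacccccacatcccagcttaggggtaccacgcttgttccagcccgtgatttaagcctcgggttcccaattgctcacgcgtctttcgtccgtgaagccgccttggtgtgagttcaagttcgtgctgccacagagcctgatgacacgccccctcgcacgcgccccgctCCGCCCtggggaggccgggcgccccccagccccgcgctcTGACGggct

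The motifs were the cAMP response element TGACGTCA, its core TGACG (which lies within the full element), AP-1 TGANTCA, TEAD GGAATG, the GC box GGGCGG, and TATAAA. The full cAMP response element was in 0 of the 14 windows, against 1.55% of the 32851 windows of all genes, and the TEAD letters were in 0, against 12.6%. The core TGACG was in 2 windows, both of *Fbln5* (17.8% of all windows), and AP-1 was in 1, of *Efemp1* (6.75%). The GC box was in 9 windows of 6 genes (32.7% of all windows), and TATAAA was in 4 windows of *Spp1*, *Thbs2*, and *Tnc* (12.4%). Windows of *Tnc* and of *Efemp2* overlap and hold the same sites, so these counts of windows include some sites more than once. The *Fbln1* window shown held none of these letters, and the window of its other RefSeq start held 1 GC box. The *Spp1* window had a GC content of 43.6% and the *Fbln5* window 65.2%, beside a median of 52.4% over all windows. A match of letters is a description only.

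The fibulins came first, as the genes that bind elastic fibers and basement membranes. *Fbln1* (chromosome 15, 85205949 to 85286535, plus strand, GRCm38), which encodes fibulin-1, a fibronectin- and basement membrane-binding fibulin, was 18.54, 14.99, and 17.22 RPKM in the 3 *ptges*-KO samples. It was 0.15, 0.16, and 0.10 RPKM in scramble samples, 0.02, 0.03, and 0.02 in *ptgs2*-KO samples, and listed at 0 in all 3 *ptgs1*-KO samples. The *ptges*-KO samples stood clear of every other sample. The *ptgs2*-KO samples were near the level of single reads, and the scramble samples were above it, at a few reads each. At the estimated depth these values came from about 944 to 1081 reads per *ptges*-KO sample, 5.71 to 8.96 per scramble sample, and 0.986 to 1.72 per *ptgs2*-KO sample. The *ptges*-KO mean (16.9 ± 1.79 RPKM) was 124-fold that of scramble (0.137 ± 0.0321), a ratio that rests on the few scramble reads, and the log2 fold change of RPKM + 1 was 3.97 ± 0.11 (SE). With a pseudocount of 0.1 in place of 1 it was 6.17. *Fbln1* passed the filter of a mean of 1 RPKM over the 12 samples through *ptges*-KO cells alone. In bulk RNA, as here, more cells that transcribe a gene and more transcript per cell cannot be told apart.

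*Fbln2* (chromosome 6, 91212455 to 91272540, plus strand), which encodes fibulin-2, a partner of fibrillin and fibronectin, was abundant and ran opposite to *Fbln1* in *ptges*-KO cells. It was 369.06, 382.12, and 373.28 RPKM in scramble samples and 432.01, 409.93, and 360.30 in *ptgs1*-KO samples. It was 557.57, 540.35, and 462.52 RPKM in *ptgs2*-KO samples and 79.90, 74.45, and 74.06 in *ptges*-KO samples. All *ptges*-KO samples were the lowest and all *ptgs2*-KO samples the highest, with *ptgs1*-KO overlapping scramble (log2 fold change 0.09 ± 0.09, 0.17 without replicate 3). The *ptges*-KO mean (76.1 ± 3.26) was 20.3% of the scramble mean (375 ± 6.66), a log2 fold change of -2.29 ± 0.09. The *ptgs2*-KO mean was 1.39-fold that of scramble (log2 fold change 0.47 ± 0.09), and *ptges*-KO cells were lower than *ptgs2*-KO cells by a log2 difference of -2.75 ± 0.09.

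*Fbln5* (chromosome 12, 101746565 to 101819055, minus strand), which encodes fibulin-5, an organizer of elastic fiber assembly with an integrin-binding motif, was 35.91, 35.74, and 32.11 RPKM in scramble samples. It was 54.00, 55.36, and 48.07 RPKM in *ptgs1*-KO, 25.07, 28.84, and 24.53 in *ptgs2*-KO, and 40.02, 37.34, and 38.74 in *ptges*-KO samples. The order of the lines was *ptgs2*-KO, scramble, *ptges*-KO, and *ptgs1*-KO from low to high, and no neighbours in that order overlapped. The log2 fold changes against scramble were 0.59 ± 0.09 in *ptgs1*-KO (0.65 without replicate 3), -0.39 ± 0.09 in *ptgs2*-KO, and 0.16 ± 0.09 in *ptges*-KO cells.

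*Efemp1* (chromosome 11, 28853204 to 28926743, plus strand), which encodes fibulin-3, was the most abundant fibulin gene in *ptges*-KO cells. It was 289.72, 280.47, and 273.03 RPKM in scramble samples and 402.13, 430.88, and 324.80 in *ptgs1*-KO samples. It was 189.33, 208.81, and 172.78 RPKM in *ptgs2*-KO samples and 277.86, 260.64, and 264.12 in *ptges*-KO samples. *ptgs1*-KO samples were above and *ptgs2*-KO samples below all scramble samples, whereas *ptges*-KO and scramble samples overlapped. The log2 fold changes were 0.45 ± 0.10 (0.57 without replicate 3), -0.56 ± 0.10, and -0.07 ± 0.10 in that order. *Efemp2* (chromosome 19, 5473954 to 5482517, plus strand), which encodes fibulin-4, a carrier of lysyl oxidase to the elastic fiber, differed little. It was 139.80, 130.88, and 137.05 RPKM in scramble, 186.07, 175.96, and 151.20 in *ptgs1*-KO, 126.74, 141.52, and 131.65 in *ptgs2*-KO, and 130.82, 113.26, and 112.43 in *ptges*-KO samples. Only *ptgs1*-KO samples lay above all scramble samples (log2 fold change 0.32 ± 0.09, 0.41 without replicate 3), and *ptges*-KO samples lay just below them, the highest at 130.82 against a lowest of 130.88 (-0.20 ± 0.09). Exons of *Efemp2* overlap those of *Mus81* (mean 18.5 RPKM) on the opposite strand, and whether the counting used strand was not given in the sources used here.

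**Figure D1:**
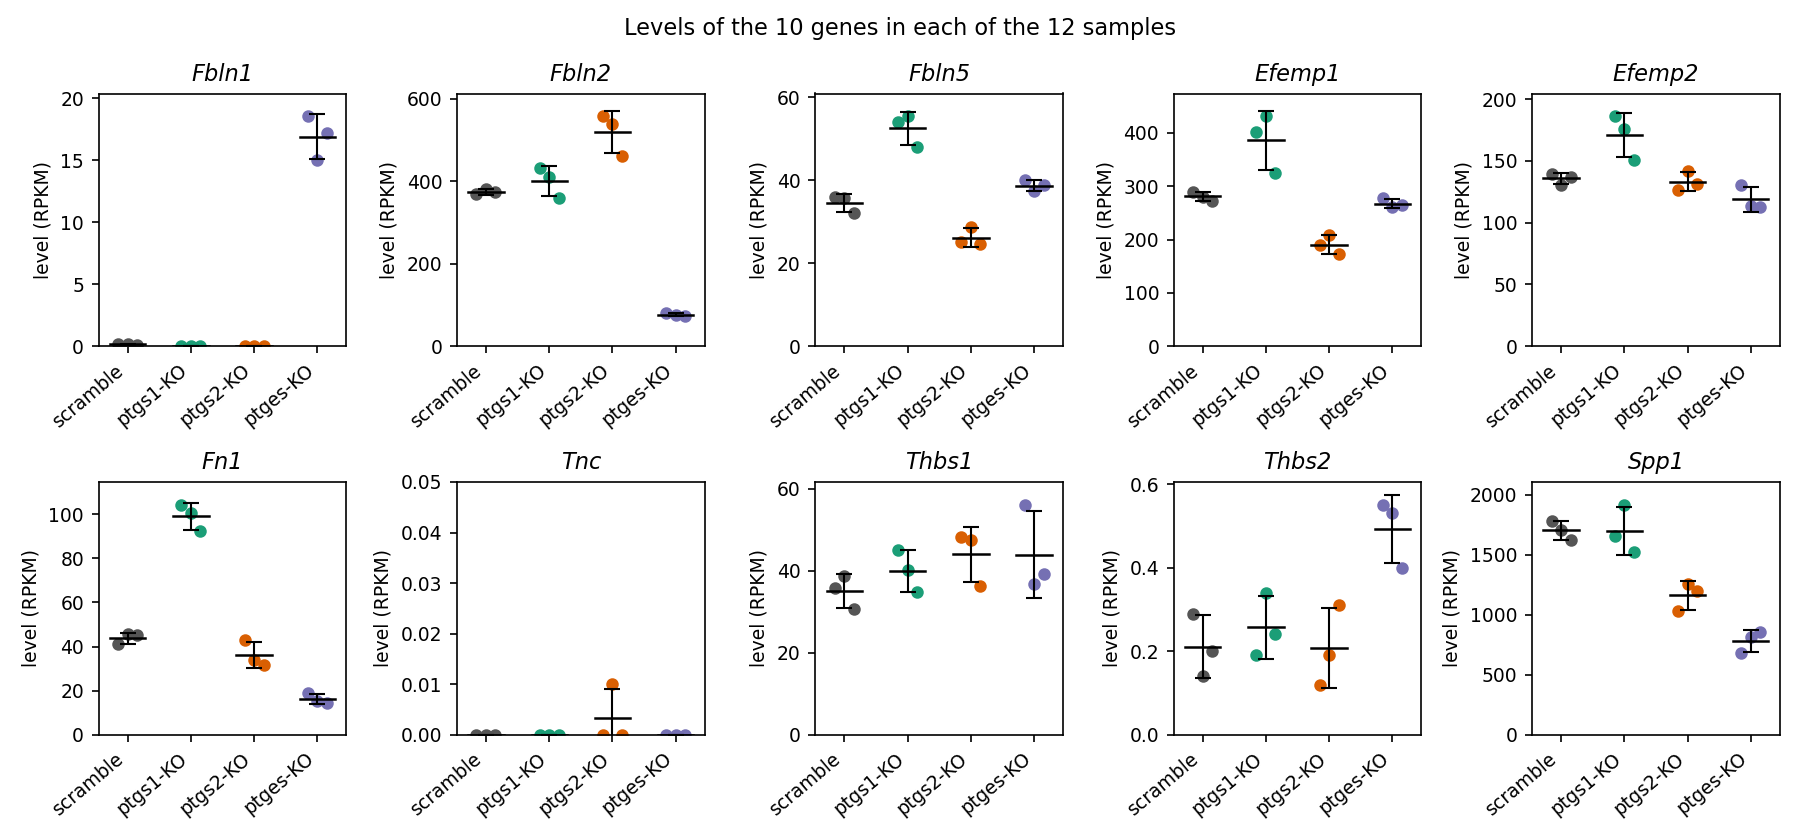
Level in RPKM (y axis, linear from 0, a scale of its own for each gene) of the 10 genes in the 12 samples, by cell line (x axis). Points are samples, and bars are the mean and the SD of 3 samples. *Fbln1* reached 14.99 to 18.54 RPKM in *ptges*-KO samples and at most 0.16 in the others, *Fbln2* stood at 74.06 to 79.90 in *ptges*-KO samples and at 360.30 or more elsewhere, and *Thbs1* samples overlapped between all lines.

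The 5 fibulin genes were summed within a sample, which needs values per transcript length. The study's legends give the values as RPKM, while its methods speak of normalized counts, and the sums and shares hold only for RPKM. Their summed level was 827 ± 9.85 RPKM in scramble, 1010 ± 109 in *ptgs1*-KO, 870 ± 68.7 in *ptgs2*-KO, and 518 ± 25.3 in *ptges*-KO cells (n = 3 each). *Fbln2* held 45.4% ± 1.00 of this sum in scramble, 39.7% ± 1.32 in *ptgs1*-KO, 59.7% ± 1.99 in *ptgs2*-KO, and 14.7% ± 0.149 in *ptges*-KO cells. *Efemp1* held 34.0% ± 0.638, 38.1% ± 1.83, 21.9% ± 0.821, and 51.7% ± 0.760 in the same order. The makeup of fibulin transcripts thus went from mainly *Fbln2* in *ptgs2*-KO cells to mainly *Efemp1* in *ptges*-KO cells, where *Fbln1* made up 3.26% ± 0.231. The shares are made from the levels above and are no further evidence.

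**Figure D2:**
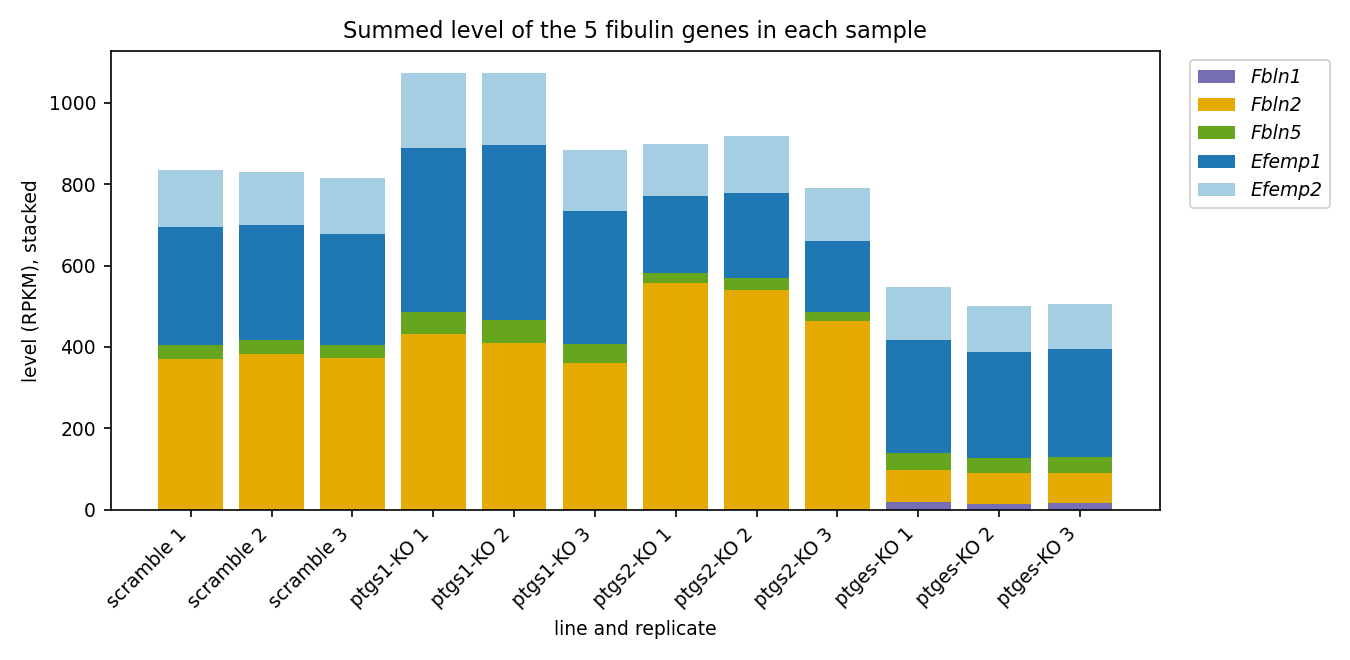
Stacked levels in RPKM (y axis) of the 5 fibulin genes in each sample (x axis, line and replicate number). The *ptges*-KO bars are the shortest, with a mean of 518 RPKM against 827 in scramble, through the *Fbln2* segment, and they alone show a visible *Fbln1* segment.

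Fibronectin, the adhesive glycoprotein to which fibulins and many integrins bind, is encoded by *Fn1* (chromosome 1, 71585520 to 71653200, minus strand). It was 40.95, 45.45, and 45.11 RPKM in scramble samples and 104.21, 100.46, and 92.34 in *ptgs1*-KO samples. It was 42.99, 34.09, and 31.60 RPKM in *ptgs2*-KO samples and 18.76, 15.05, and 14.59 in *ptges*-KO samples. The *ptgs1*-KO and *ptges*-KO samples lay outside the scramble range on opposite sides, and *ptgs2*-KO samples overlapped scramble. The *ptgs1*-KO mean was 2.26-fold that of scramble (log2 fold change 1.16 ± 0.12, 1.21 without replicate 3), and the *ptges*-KO mean was 36.8% of it (-1.39 ± 0.12). *ptges*-KO cells were below *ptgs2*-KO cells by a log2 difference of -1.12 ± 0.12.

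Of the antiadhesive and angiogenesis-modulating glycoproteins, *Tnc* (chromosome 4, 63959785 to 64047015, minus strand), which encodes tenascin-C, was listed at 0 in 11 samples and at 0.01 RPKM, about 1 read, in *ptgs2*-KO replicate 2. *Thbs1* (chromosome 2, 118111876 to 118127133, plus strand), which encodes thrombospondin-1, an activator of latent TGF-beta and a ligand of CD47, was 35.87, 38.73, and 30.69 RPKM in scramble samples. It was 45.03, 40.13, and 34.85 RPKM in *ptgs1*-KO, 48.18, 47.54, and 36.15 in *ptgs2*-KO, and 56.04, 36.65, and 39.11 in *ptges*-KO samples. All lines overlapped, with log2 fold changes against scramble of 0.18 ± 0.16, 0.31 ± 0.16, and 0.30 ± 0.16, so a difference in *Thbs1* was not resolved with 3 samples per line. Single samples moved these values, from 0.09 without scramble replicate 3 to 0.28 without *ptgs1*-KO replicate 3, from 0.22 without scramble replicate 3 to 0.44 without *ptgs2*-KO replicate 3, and from 0.11 without *ptges*-KO replicate 1 to 0.41 without *ptges*-KO replicate 2. *Thbs2* (chromosome 17, 14665500 to 14694235, minus strand), a relative of *Thbs1* with antiangiogenic activity, stayed below 1 RPKM and was not in the fit. It was 0.55, 0.53, and 0.40 RPKM in *ptges*-KO samples, about 40.3 to 53.8 reads, and 0.12 to 0.34 in the other 9 samples. Every *ptges*-KO value was therefore above every value of the other lines, at a mean 2.35-fold that of scramble (0.493 ± 0.0814 against 0.210 ± 0.0755).

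*Spp1* (chromosome 5, 104435118 to 104441050, plus strand), which encodes osteopontin, a secreted phosphoprotein that binds integrins and CD44, was the most abundant of the 10 and ranked 64 among all genes by its mean. It was 1782.75, 1701.82, and 1624.29 RPKM in scramble samples and 1652.52, 1913.36, and 1518.69 in *ptgs1*-KO samples. It was 1027.96, 1255.94, and 1195.59 RPKM in *ptgs2*-KO samples and 681.07, 812.52, and 852.78 in *ptges*-KO samples. The *ptges*-KO samples were the lowest, the *ptgs2*-KO samples next, and *ptgs1*-KO samples overlapped scramble. The means of *ptges*-KO and *ptgs2*-KO cells were 45.9% and 68.1% of the scramble mean (log2 fold changes -1.13 ± 0.12 and -0.56 ± 0.12).

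The 3 knockouts were compared with the same scramble samples, and *ptges*-KO with *ptgs2*-KO cells. Of the 10 genes, 8 entered the fit, 7 of them with a mean of at least 1 RPKM in every line, and *Tnc* and *Thbs2* did not. A gene was called at a limma adjusted p under 0.05 over 11282 genes. In *ptgs1*-KO cells 4 of the 8 were called, all higher, beside 9.26% of all genes, 4.65% higher and 4.61% lower. In *ptgs2*-KO cells 4 were called, 1 higher and 3 lower, beside 11.1% of all genes, 5.97% higher and 5.17% lower. In *ptges*-KO cells 4 were called, 1 higher and 3 lower, beside 26.3% of all genes, 11.9% higher and 14.4% lower. For *ptges*-KO against *ptgs2*-KO cells 6 were called, 3 in each direction, beside 16.6% of all genes, 6.76% higher and 9.84% lower. Since the list was made with these differences known, nothing is read from these counts. The *ptgs1*-KO count was 2 without scramble replicate 2 or 3 or *ptgs1*-KO replicate 1 or 2. Values of the groups did not overlap for 5, 5, 6, and 6 of the 8 genes in that order, beside 26.9%, 35.1%, 43.3%, and 34.0% of all genes. The called genes were *Fbln5*, *Efemp1*, *Efemp2*, and *Fn1* in *ptgs1*-KO cells, *Fbln2*, *Fbln5*, *Efemp1*, and *Spp1* in *ptgs2*-KO cells, and *Fbln1*, *Fbln2*, *Fn1*, and *Spp1* in *ptges*-KO cells. These calls are a description too, and *Fbln1* was in the fit through *ptges*-KO cells alone.

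**Figure D3:**
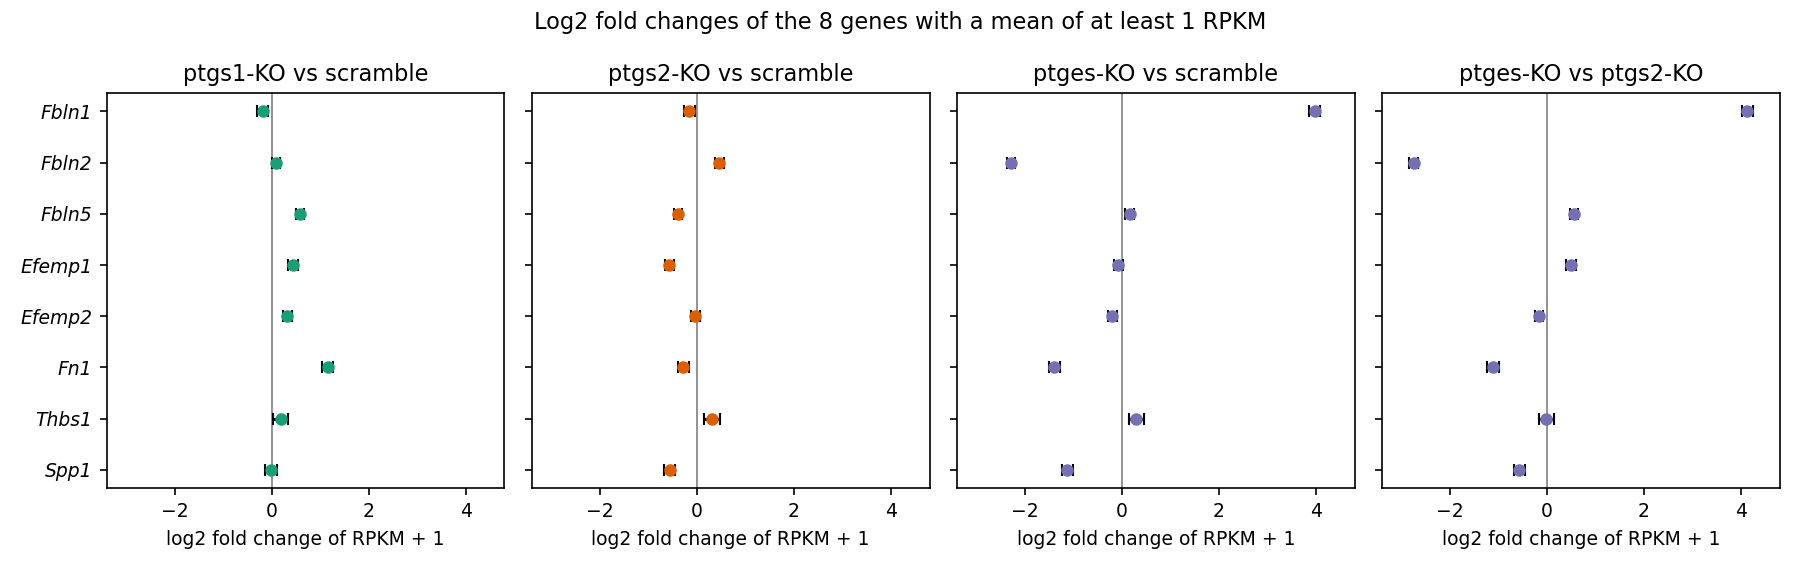
Log2 fold change of RPKM + 1 (x axis) of the 8 genes in the fit (y axis) in each comparison (panels, titled with the line in the numerator first). Points are limma estimates and bars their SE. *Fbln1* at 3.97 and *Fbln2* at -2.29 lay farthest from 0 against scramble, both in *ptges*-KO cells.

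The other genes of these families were then tested, from a list of 58 elastic fiber, microfibril, and matricellular genes taken by family. This list and that of the receptors below were also chosen with earlier results of these data known. Their counts and adjusted p-values are therefore a description too. Of these 21 passed the filter. Elastin itself (*Eln*) reached at most 0.02 RPKM in any sample and lysyl oxidase (*Lox*) had a mean of at most 0.0133 in any line, whereas *Sparc*, a collagen-binding matricellular protein, was at 816 ± 37.1 RPKM in scramble. These 3 were named after their values were seen. In *ptgs1*-KO cells 7 of the 21 rose and 4 fell (4.65% and 4.61% of all genes), with a median log2 fold change of 0.18 (0.01 over all genes). In *ptgs2*-KO cells 4 rose and 8 fell (5.97% and 5.17% of all genes, median -0.23 against 0.01). In *ptges*-KO cells 2 rose and 11 fell (11.9% and 14.4% of all genes, median -0.43 against -0.03). In *ptges*-KO compared with *ptgs2*-KO cells 4 genes of the list were lower and 0 higher by limma (7 and 1 at an unadjusted p under 0.05), beside 9.84% and 6.76% of all genes, with a median of -0.13 against -0.03. Replicate 1 of these lines deviated together (correlation 0.566), whereas the numbers did not pair replicates 2 and 3. With the replicate number as a block, 9 genes of the list were called in a fit of the 2 lines and 7 in the fit of all lines. *Ltbp4* was among them as higher (0.36, limma adjusted p = 0.00691 and 0.0289). The *ptgs2*-KO count of 12 was 6 without scramble replicate 1, and the last count of 4 was 7 without *ptges*-KO replicate 1. The list was not tested as a set.

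Among elastic fiber genes, *Fbn1*, which encodes fibrillin-1, the core of microfibrils, was 17.12, 18.74, and 18.32 RPKM in scramble samples and 38.16 to 53.05 in *ptges*-KO samples. It rose in *ptges*-KO cells, by 1.21 ± 0.14 on the log2 scale (limma adjusted p = 3.77e-05), and in *ptgs2*-KO cells, by 1.12 ± 0.14 (adjusted p = 0.000174). *Ltbp4*, a latent TGF-beta binding protein that works with fibulins in elastic fibers, fell from 246 to 134 RPKM in *ptgs2*-KO cells (limma log2 fold change -0.88 ± 0.12, adjusted p = 0.000478). It also fell in *ptges*-KO cells, to 173 RPKM (-0.52 ± 0.12, limma adjusted p = 0.00698). *Fbn1* RNA thus rose in the *ptges*-KO line in which *Fbln2* RNA was lower, and also in the *ptgs2*-KO line in which *Fbln2* RNA was higher.

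Among adhesive glycoproteins, *Npnt*, which encodes the integrin ligand nephronectin, followed *Fbln2* in direction in *ptgs2*-KO and *ptges*-KO cells. It was 3.34, 3.59, and 2.80 RPKM in scramble, 11.14, 8.65, and 6.11 in *ptgs2*-KO, 0.96, 0.67, and 1.01 in *ptgs1*-KO, and 0.39, 0.50, and 0.56 in *ptges*-KO samples. It rose in *ptgs2*-KO cells (limma log2 fold change 1.15 ± 0.17, adjusted p = 0.000885) and fell in *ptgs1*-KO (-1.17, adjusted p = 0.000645) and *ptges*-KO cells (-1.51, adjusted p = 4.23e-05). *Agrn*, which encodes the basement membrane proteoglycan agrin, fell in both *ptgs2*-KO and *ptges*-KO cells (limma log2 fold changes -0.83 and -1.03, adjusted p = 0.000377 and 2.75e-05). *Tnxb*, which encodes tenascin-X, fell in the same 2 lines, from 3.47 to 1.14 and 1.16 RPKM (limma log2 fold changes -1.06 and -1.05, adjusted p = 0.000288 and 0.000144). *Dmp1*, a mineralized-tissue phosphoprotein of the same family as osteopontin that lies 221 kb from *Spp1*, was 2.62, 2.98, and 2.67 RPKM in scramble and 0.31, 0.37, and 0.46 in *ptges*-KO samples (limma log2 fold change -1.44 ± 0.12, adjusted p = 2.77e-06). It went the other way in *ptgs1*-KO cells, where it rose to 4.30 RPKM (limma log2 fold change 0.49, adjusted p = 0.0206), and stood at 3.97 in *ptgs2*-KO cells, above all scramble samples but short of the threshold (0.40, adjusted p = 0.0508).

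In *ptgs1*-KO cells *Tgfbi*, *Nid2*, *Npnt*, *Wisp2*, and *Ecm1* differed most. *Nid2*, which encodes the basement membrane linker nidogen-2, rose from 9.97 to 26.9 RPKM (limma log2 fold change 1.34 ± 0.13, adjusted p = 1.29e-05), and *Wisp2* of the CCN family rose from 0.897 to 2.98 RPKM (1.06 ± 0.13, adjusted p = 0.000118). *Tgfbi*, which encodes a TGF-beta-induced integrin ligand, fell from 5.75, 5.13, and 4.89 RPKM in scramble to 0.56, 0.46, and 0.42 in *ptgs1*-KO samples (limma log2 fold change -2.08 ± 0.15, adjusted p = 7.40e-07). The extracellular matrix protein gene *Ecm1* fell from 46.3 to 22.8 RPKM (limma log2 fold change -0.99 ± 0.13, adjusted p = 0.000279). The same genes were also called in other lines. *Nid2* also rose in *ptgs2*-KO and *ptges*-KO cells (0.43 and 0.50, limma adjusted p = 0.0443 and 0.0107), *Ecm1* fell in both (-0.50 and -0.77, adjusted p = 0.0264 and 0.00101), and *Tgfbi* fell in *ptgs2*-KO cells (-0.62, adjusted p = 0.0165). *Wisp2* fell in both (-0.48 and -0.49, limma adjusted p = 0.0282 and 0.0122). Without *ptgs1*-KO replicate 3 the *ptgs1*-KO log2 fold changes were 1.46 for *Nid2*, 1.07 for *Wisp2*, -2.05 for *Tgfbi*, -0.98 for *Ecm1*, -1.23 for *Npnt*, and 0.50 for *Dmp1*, all still called. Between *ptges*-KO and *ptgs2*-KO cells *Npnt* (log2 fold change -2.67) and *Dmp1* (-1.84) differed most, followed by the CCN genes *Nov* (-0.62) and *Cyr61* (-0.46), with limma adjusted p from 2.45e-07 to 0.00726. Against scramble, *Cyr61* rose in *ptgs2*-KO cells (0.51, limma adjusted p = 0.00362) and was at 0.05 in *ptges*-KO cells (adjusted p = 0.725). *Nov* fell in *ptges*-KO cells (-0.85, limma adjusted p = 0.00065) and in *ptgs1*-KO cells (-0.68, adjusted p = 0.00622, and -0.54 without replicate 3).

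**Figure D4:**
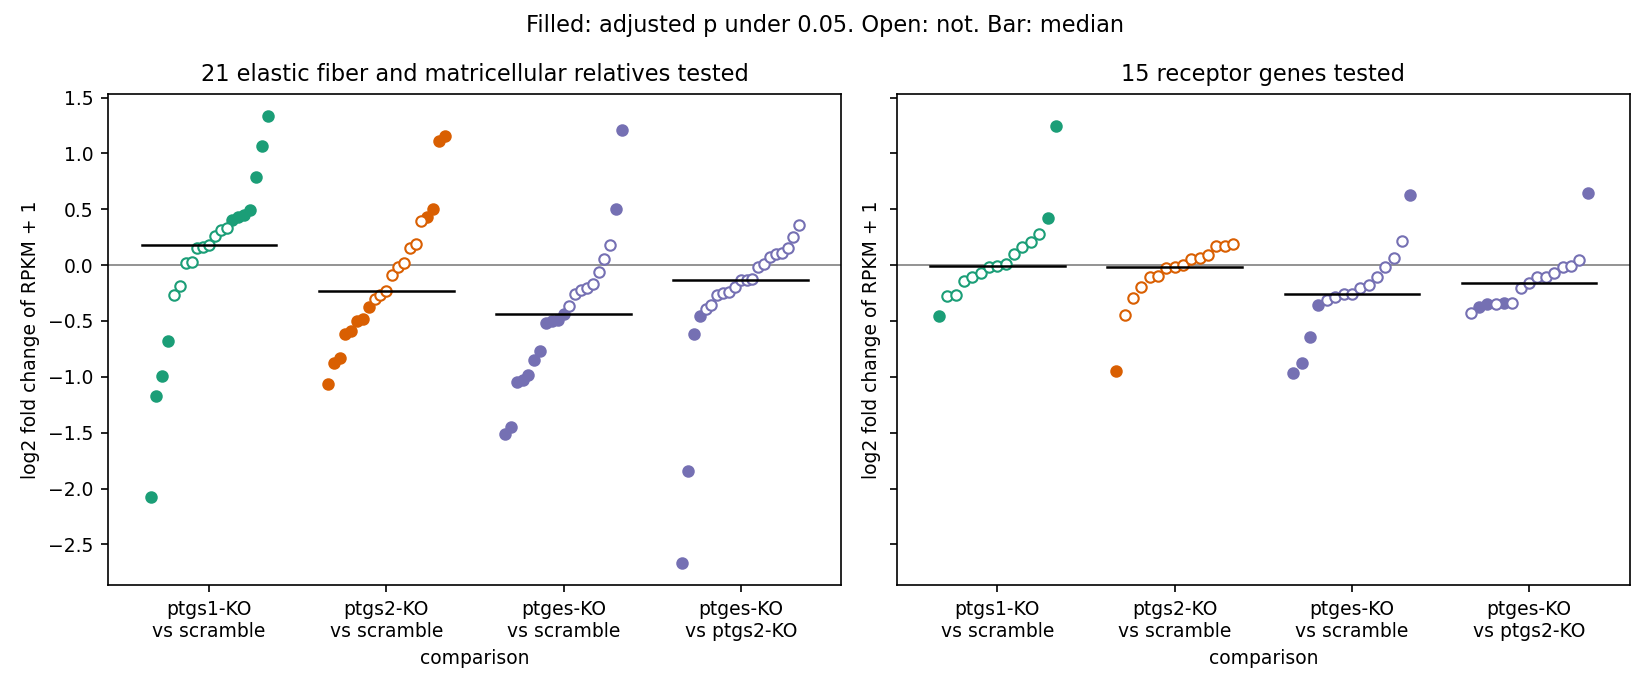
Log2 fold change of RPKM + 1 (y axis) of the 21 relatives (left) and the 15 receptor genes (right) that passed the filter, in each comparison (x axis). Each point is a gene, ordered by value within a comparison and filled where the limma adjusted p was under 0.05, and the bar is the median. In *ptges*-KO against scramble 11 filled points lie below 0 and 2 above among relatives.

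Of 22 receptor genes for these ligands, mostly integrins and syndecans, 15 passed the filter. In *ptgs1*-KO cells 2 rose and 1 fell, in *ptgs2*-KO cells 0 rose and 1 fell by limma (0 and 4 at an unadjusted p under 0.05), and in *ptges*-KO cells 1 rose and 4 fell, with medians of -0.01, -0.02, and -0.26 (0.01, 0.01, and -0.03 over all genes). The shares of all genes called were 9.26%, 11.1%, and 26.3% in that order. *Itga4*, the alpha chain of a fibronectin and osteopontin receptor, rose in *ptgs1*-KO cells from 3.62, 4.19, and 3.95 RPKM to 11.45, 11.88, and 8.91 (limma log2 fold change 1.25 ± 0.13, adjusted p = 4.78e-05). In the same cells the syndecan gene *Sdc4* rose (0.42, limma adjusted p = 0.00487) and the urokinase receptor gene *Plaur* fell (-0.45, adjusted p = 0.0275). Without *ptgs1*-KO replicate 3 *Itga4* was at 1.37 and *Sdc4* at 0.42, both still called, while *Plaur* was at -0.32 and no longer called (limma adjusted p = 0.0772). *Itgb7*, a beta chain that pairs with the *Itga4* product, fell from 213 RPKM to 111 in *ptgs2*-KO and 109 in *ptges*-KO cells (limma log2 fold changes -0.95 and -0.96, adjusted p = 1.37e-05 and 5.68e-06). In *ptges*-KO cells the thrombospondin and fibronectin scavenger receptor gene *Lrp1* fell from 548 to 301 RPKM (limma log2 fold change -0.88 ± 0.15, adjusted p = 0.000946). The fibronectin receptor chain *Itga5* fell (-0.64, limma adjusted p = 0.00109), as did *Itga3* (-0.36, adjusted p = 0.0419), and *Sdc2* rose from 81.9 to 127 RPKM (0.63 ± 0.10, adjusted p = 0.000722). Between *ptges*-KO and *ptgs2*-KO cells 1 receptor gene was higher and 3 were lower, beside 6.76% and 9.84% of all genes (median -0.16, against -0.03 over all genes). With the replicate block 7 were called in either fit. The fit of the 2 lines then called 3827 of all 11282 genes, and that of all lines 783 as higher and 1228 as lower. *Sdc2* was again higher in *ptges*-KO cells (0.65, limma adjusted p = 0.000724), with *Plaur* and *Sdc1* lower (-0.38 and -0.34, adjusted p = 0.0418 and 0.0447), and the number called there ran from 1 to 7 over the alternative settings.

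The nearest genes in the fit did not share the large differences of *Fbln1* and *Fbln2*. In *ptges*-KO cells *Atxn10*, 49.7 kb from *Fbln1*, had a log2 fold change of 0.39 (limma adjusted p = 0.00151) and *Fam118a*, 143 kb away on the other side, -0.05 (adjusted p = 0.754). The neighbours of *Fbln2*, *Iqsec1* and *Chchd4*, had log2 fold changes of 0.06 and -0.06 (limma adjusted p = 0.767 and 0.728). Of the genes beside *Spp1*, *Pkd2* at 18.4 kb had a log2 fold change of -0.37 (limma adjusted p = 0.0111). *Dmp1*, 221 kb away on the other side, had -1.44 in the same cells (limma adjusted p = 2.77e-06).

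The genes with the most similar profile over the 12 samples were found for the 5 genes whose line means spanned at least 1 on the log2 scale, by the root mean square (RMS) difference of centered log2(RPKM + 1) values. For *Fbln1* these were *Magohb* (RMS 0.265), *Itm2a* (0.444), and *Morn4* (0.460), each at most 0.38 RPKM in the mean of the other lines and 15.4, 8.59, and 7.81 in *ptges*-KO cells. *Magohb* has a near-identical copy, *Magoh*, and its values are uncertain for that reason. For *Fbln2* they were the heparan sulfate sulfotransferase gene *Hs6st2* (0.259), the collagen gene *Col18a1* (0.270), and *Prrg1* (0.325). *Hs6st2* was 16.0 RPKM in scramble and 1.97 in *ptges*-KO cells, and *Col18a1* was 13.3 and 2.81. For *Fn1* they were *Shc2* (0.154), *Ank3* (0.172), and the BMP antagonist gene *Grem1* (0.205), which was 62.9 RPKM in scramble, 204 in *ptgs1*-KO, 61.4 in *ptgs2*-KO, and 28.8 in *ptges*-KO cells. For *Efemp1* they were *A930001N09Rik* (0.113), the lipoprotein receptor gene *Vldlr* (0.116), and the heparanase gene *Hpse* (0.123). For *Spp1* they were *Angptl2* (0.153), *Chrd* (0.159), and *Slc25a37* (0.160), with *Angptl2* at 411 RPKM in scramble and 191 in *ptges*-KO cells.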

How the data were processed

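RNA-seq of 12 samples of cultured murine BrafV600E melanoma cells was used, 3 per group as labelled. The authors sequenced directional mRNA libraries (101 bp, paired-end) and deposited RPKM values with 2 decimals, on mm10 (= GRCm38) per the submitters' processing notes. The aligner, counter, and gene annotation were not given in the sources used here. The sums per sample ran from 878504 to 903881, so another scaling to a fixed total cannot be told apart.

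Genes that averaged 1 RPKM or more across samples (11282 of 30705, 12082 being at 0 in all) were tested on log2(RPKM + 1) in R 4.3.3 with limma 3.58.1 (lmFit, then eBayes with trend), all 12 samples in 1 model with group as the term. Calls were made at 0.05 after Benjamini-Hochberg adjustment across the genes tested. Fold changes are on this scale, with a pseudocount of 1, and understate those of low genes. The script was tested on simulated data. Python 3.11.15 and matplotlib 3.10.9 made the figures. Positions are from GENCODE M21, and promoters from RefSeq. Depth was estimated from the common step of value times length among low values of genes with a single transcript of 500 to 1500 bases, and was least sharp in *ptgs1*-KO replicate 1. Whole reads were not recovered for all genes, so no counting intervals were computed.

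The members and lists were chosen with earlier results of these data known. Named genes were the 10 members, the 3 targets, per list and comparison the 5 genes with the largest log2 fold change among those called without overlap, and per member spanning at least 1 the 3 genes of most similar profile. P-values set a difference against the spread between samples within groups, pooled over the groups in the fit and moderated by limma over all genes. Same-numbered samples had a correlation of deviations over 0.1 in 5 of 18 pairs (range -0.341 to 0.566). Between the *ptges*-KO and *ptgs2*-KO lines every same-numbered pair did (0.566, 0.112, and 0.254). Replicate 1 of either line correlated negatively with the other numbers (-0.475 to -0.277). Replicates 2 and 3 also correlated across numbers (0.321 for *ptgs2*-KO 2 with *ptges*-KO 3, 0.219 for *ptgs2*-KO 3 with *ptges*-KO 2). The numbers thus set replicate 1 apart in both lines but did not pair replicates 2 and 3. A block by number in a fit of the 2 lines was run for that comparison only. Any pairing comes from the data, as the labels name nothing that the numbers share. Alternatives were another pseudocount, filters, scalings, a replicate block, only the groups compared, each replicate left out, and, added after seeing the data, a scaling without ribosomal RNA rows and a block fit of *ptges*-KO and *ptgs2*-KO cells alone.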

Additional observations from a re-analysis of the deposited data

Results flagged for a closer look

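In 6 of the genes, all samples of one knockout lay above and all samples of another lay below all scramble samples. These are 8 pairs of knockouts, and no p-value is given for a difference, since the genes were chosen with these values known. Differences from *ptgs1*-KO cells were not tested, and those between *ptges*-KO and *ptgs2*-KO cells are among the calls counted above. The differences are on the scale of log2(RPKM + 1), and the scramble samples are shared by all of them.

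*Fbln1* lay above scramble in *ptges*-KO and below it in both other knockouts, with a difference of 4.16 from *ptgs1*-KO and 4.13 from *ptgs2*-KO cells, where the values below scramble were 0 to 0.03 RPKM, from at most 1.72 estimated reads. *Fbln2* lay above scramble in *ptgs2*-KO and below it in *ptges*-KO cells, a difference of 2.75. *Fn1* lay above scramble in *ptgs1*-KO and below it in *ptges*-KO cells, a difference of 2.55. *Efemp1* lay above scramble in *ptgs1*-KO and below it in *ptgs2*-KO cells, a difference of 1.01. *Fbln5* did the same, with a difference of 0.98 between *ptgs1*-KO and *ptgs2*-KO cells, and of 0.55 between *ptges*-KO and *ptgs2*-KO cells. *Efemp2* lay above scramble in *ptgs1*-KO and below it in *ptges*-KO cells, a difference of 0.52, with the closest samples at 130.88 RPKM in scramble and 130.82 in *ptges*-KO cells.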

How the results depend on the processing

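Over 21 alternatives, 614 of 644 compared values of the 8 genes kept direction and side of the threshold, 14 lost and 3 gained the call, and 13 changed sign, all of them values that were not called. In many of these alternatives the direction could not change. Another filter, only the groups compared, a block, or leaving out a sample of an uncompared line keeps the log2 fold change as it was. The number that kept direction is therefore no measure of how firm the directions are. The calls gained were *Fbln1* in *ptgs1*-KO (-1.23 with a pseudocount of 0.1), *Fn1* in *ptgs2*-KO (-0.41 without *ptgs2*-KO replicate 1), and *Efemp2* in *ptges*-KO cells (-0.22 with quantile normalization). The sign changes were *Spp1* in *ptgs1*-KO (0.0577 with quantile normalization, and 0.0211, 0.0025, and 0.0634 without scramble replicate 1, *ptgs1*-KO replicate 1, and *ptgs1*-KO replicate 3), *Fbln1* in *ptgs2*-KO (0.0774 with quantile normalization), *Efemp2* in *ptgs2*-KO (0.0067 without *ptgs2*-KO replicate 1), and *Thbs1* between *ptges*-KO and *ptgs2*-KO cells (0.0365 with median ratio scaling, with or without ribosomal RNA rows, 0.0198 with quantile normalization, and 0.0566, 0.0471, 0.101, and 0.0554 without *ptgs2*-KO replicate 1 or 2 and *ptges*-KO replicate 2 or 3). With a replicate left out, the lowest values of *Spp1*, *Efemp2*, and *Thbs1* there were -0.103, -0.0723, and -0.199. Calls of *Efemp1* and *Efemp2* in *ptgs1*-KO cells were lost in 4 and 9 alternatives, and that of *Fbln5* in *ptgs2*-KO cells without scramble replicate 1. A filter at a mean of 10 RPKM left *Fbln1* out. The cause of these moves was not tested.

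Counts follow in the order *ptgs1*-KO, *ptgs2*-KO, *ptges*-KO against scramble, and *ptges*-KO against *ptgs2*-KO. Of genes called (1045, 1257, 2969, 1873), the first was 582 with the filter at 10, which tests fewer genes, and 1570 with quantile normalization, and the second 1961 and 1962 with median ratio scaling without and with removal of ribosomal RNA rows, and the last 3827 with the block in the 2 lines alone. Of relatives, the filter at 10 left 5, 7, 7, and 1, and the last was 7 with either median ratio scaling, 8 with quantile normalization, 7 with the replicate block, and 9 with the block in the 2 lines alone. Of receptors, the first was 5 with ribosomal RNA rows removed, the second 3 with either median ratio scaling and 2 with quantile normalization or the block, and the last 1 without a filter, 7 with quantile normalization or either block, and 2 with only the groups compared. The block changed no call of the 8 genes in any comparison. With a replicate left out, genes called ran 645 to 1163, 722 to 1559, 1936 to 3282, and 1104 to 2236, the 8 genes 2 to 4, 3 to 5, 4 to 4, and 6 to 6, relatives 9 to 11, 6 to 13, 12 to 15, and 4 to 7, and receptors 2 to 4, 1 to 2, 4 to 7, and 1 to 6. The 8 genes fell to 2 called in *ptgs1*-KO cells without scramble replicate 2 or 3 or *ptgs1*-KO replicate 1 or 2, and relatives in *ptgs2*-KO cells to 6 without scramble replicate 1. Of the genes called in *ptges*-KO cells, 45.2% were higher than in scramble (54.5% with median ratio scaling) and 40.7% higher than in *ptgs2*-KO cells (51.6%).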
